A study of Branchiostoma lanceolatum with 6 samples.

Results

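The genes specific to muscular somites are the 113 genes of the amphioxus neurula atlas whose expression in muscular somite cells was over 2 times that in any of the 16 other cell types. Unique molecular identifiers (UMIs, tags that count each captured mRNA once) were summed over the cells of a type and expressed per 10,000 UMIs of all genes, and a gene had to have at least 50 UMIs in muscular somites. Of the 27073 genes measured, 1956 had that many UMIs, and 121 of them (6.19%) passed. Among these were 8 well-known muscular somite genes, namely Mrf1, Mrf2a, Mrf2b, Mrf4, Mef2, Lmo4, MLC-alk and Titin-like, which were set aside and appear here for reference only. The 113 genes were thus chosen by their levels in the cell types, which are given as a description, with no test.

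Somites are the segmented blocks of mesoderm on both sides of the notochord. In amphioxus their medial part forms the striated swimming muscle of the body wall, while the lateral and ventral parts give non-muscular tissue. In chordates, myogenic regulatory factors of the basic helix-loop-helix family act with Mef2 to switch on the genes of the sarcomere, among them those for actin, myosin chains and titin, and Srf activates many genes of the contractile cytoskeleton. At the neurula stage the muscle cells of the somites are differentiating.

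The study dissociated wild-type *Branchiostoma lanceolatum* embryos at 21 hpf (hours post-fertilization), pooled them and sorted single cells into plates for MARS-seq, a plate-based method that counts UMIs at the poly(A) end of transcripts. Levels can thus be set side by side between genes without scaling by length. Cells carry no mark of the 2 scRNA-seq samples, so all 14586 cells were 1 sample with no replicate, and the ATAC-seq samples were not used here. The intervals given are exact 95% intervals that cover counting error only and leave out the spread between cells and between embryos. They are thus too narrow for genes whose UMIs come from few cells.

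The authors assigned 182 cells, in metacells 14 and 15, to muscular somites and 666 cells, in 8 other metacells, to non-muscular somites. A metacell is a group of cells with alike transcriptomes. All 8 reference markers were detected in the muscular somites, with a summed level of 82.2 UMIs per 10,000. Markers of other tissues were low there. The 3 notochord markers summed to 0.85 against 14.8 in the notochord, the 4 epidermal ones to 9.11 against 339 in the posterior epidermis, the 2 neural ones to 1.60 against 20.7 in neural cells, the 3 tailbud ones to 1.84 against 42.2 in the tailbud, and the 2 endodermal ones to 0.085 against 8.01 in the endoderm. The endodermal markers were Otx and Foxe, which were highest in the cells of endostyle and club-shaped gland, at 9.48 and 9.26. No marker of these lists was at 0 UMIs. Of the 4 non-muscular somite markers, Ripply (5.30 against 5.45) and Tbx15/18/22 (0.94 against 1.19) were near their non-muscular level, while Gata1/2/3 (0.65 against 7.09) and Alx (0.20 against 2.36) were not.

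Together the 113 genes made up 7.54% of the UMIs of muscular somite cells, a summed level of 754 (747 to 761) per 10,000 from 44302 UMIs. The non-muscular somites came next at 112 (110 to 113), 6.76 times lower, and the notochord at 80.9 (79.1 to 82.8), 9.32 times lower. Epidermal neural 1 cells were at 68.2, neural cells at 58.7, and the posterior and anterior epidermis at 25.4 and 24.8. The first place of muscular somites follows from the choice of the genes. Posterior epidermal cells and non-muscular somite cells, pooled over many UMIs, each held at least 1 UMI of all 113 genes, and 27 of the genes had a UMI in all 17 types.

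**Figure D1:**
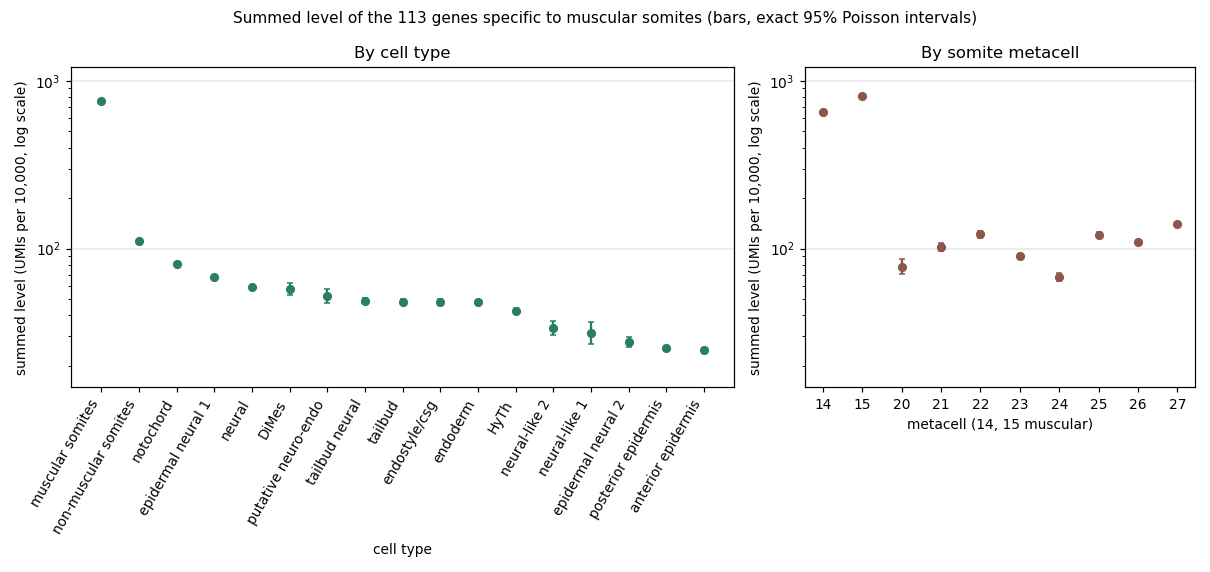
Summed level of the 113 genes in UMIs per 10,000 on a log axis, by cell type (left) and by somite metacell (right), with bars for the exact 95% Poisson interval. Muscular somites stand at 754, non-muscular somites at 112 and the epidermis near 25, and metacells 14 and 15 at 653 and 807 lie above the 8 non-muscular metacells at 67.6 to 140.

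Expression was spread unevenly over the genes. The median level was 2.49 per 10,000, with quartiles of 1.43 and 9.04 and a range from 0.87 to 82.8. The 10 most expressed genes held 41.6% of all UMIs of the set and the 20 most expressed 58.6%. BLAG90000299 alone held 11%. It stood at 82.8 (80.5 to 85.2), against 7.41 for non-muscular somites and 0.47 for posterior epidermis, and was above every reference marker, of which MLC-alk, a myosin light chain, was highest at 27.5. A UMI of BLAG90000299 was found in 95.1% (90.8 to 97.7) of muscular somite cells, in 43.5% of non-muscular somite cells and in 5.74% of posterior epidermal cells. Median depths of these types were 2182, 3002 and 1246 UMIs. With every cell thinned to 500 UMIs the shares were 87.7%, 21.9% and 2.77%, from 179, 652 and 5998 cells, after 3, 14 and 548 shallower cells were left out.

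The genes that followed differed in how far they were shared with other types. BLAG16000598 was at 37.4 (35.8 to 39.0) in muscular and 7.38 in non-muscular somites. BLAG19000213 was at 33.0 (31.5 to 34.5), with 9.54 in the Di-Mesencephalic primordium and 6.45 in non-muscular somites, so both had a sizeable level elsewhere. BLAG02001926, at 30.3 (28.9 to 31.7), was confined far more narrowly, as no other type exceeded 0.43. BLAG17000900 was at 23.5 (22.3 to 24.8) with at most 1.87 elsewhere, and BLAG13000210 at 21.7 (20.6 to 23) with at most 0.53. BLAG01001147 was at 20.9 with 6.73 in non-muscular somites, and BLAG09000857 at 19.4 with 4.13 there. Beside these broader genes, BLAG17000908 (18.3) and BLAG01000230 (16.8) were narrow, at no more than 0.22 and 0.56 elsewhere, and BLAG17000899 (13.0) reached 1.34. BLAG15101014 (12.8), BLAG01000886 (12.7), BLAG15000664 (12.4), BLAG19000214 (12.2), BLAG17000843 (11) and BLAG18000657 (10.6) complete the leading genes together with the named and narrow ones below. In all, 25 genes exceeded 10 per 10,000 and 8 were under 1. The source tables give no name or product for any of these IDs.

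**Figure D2:**
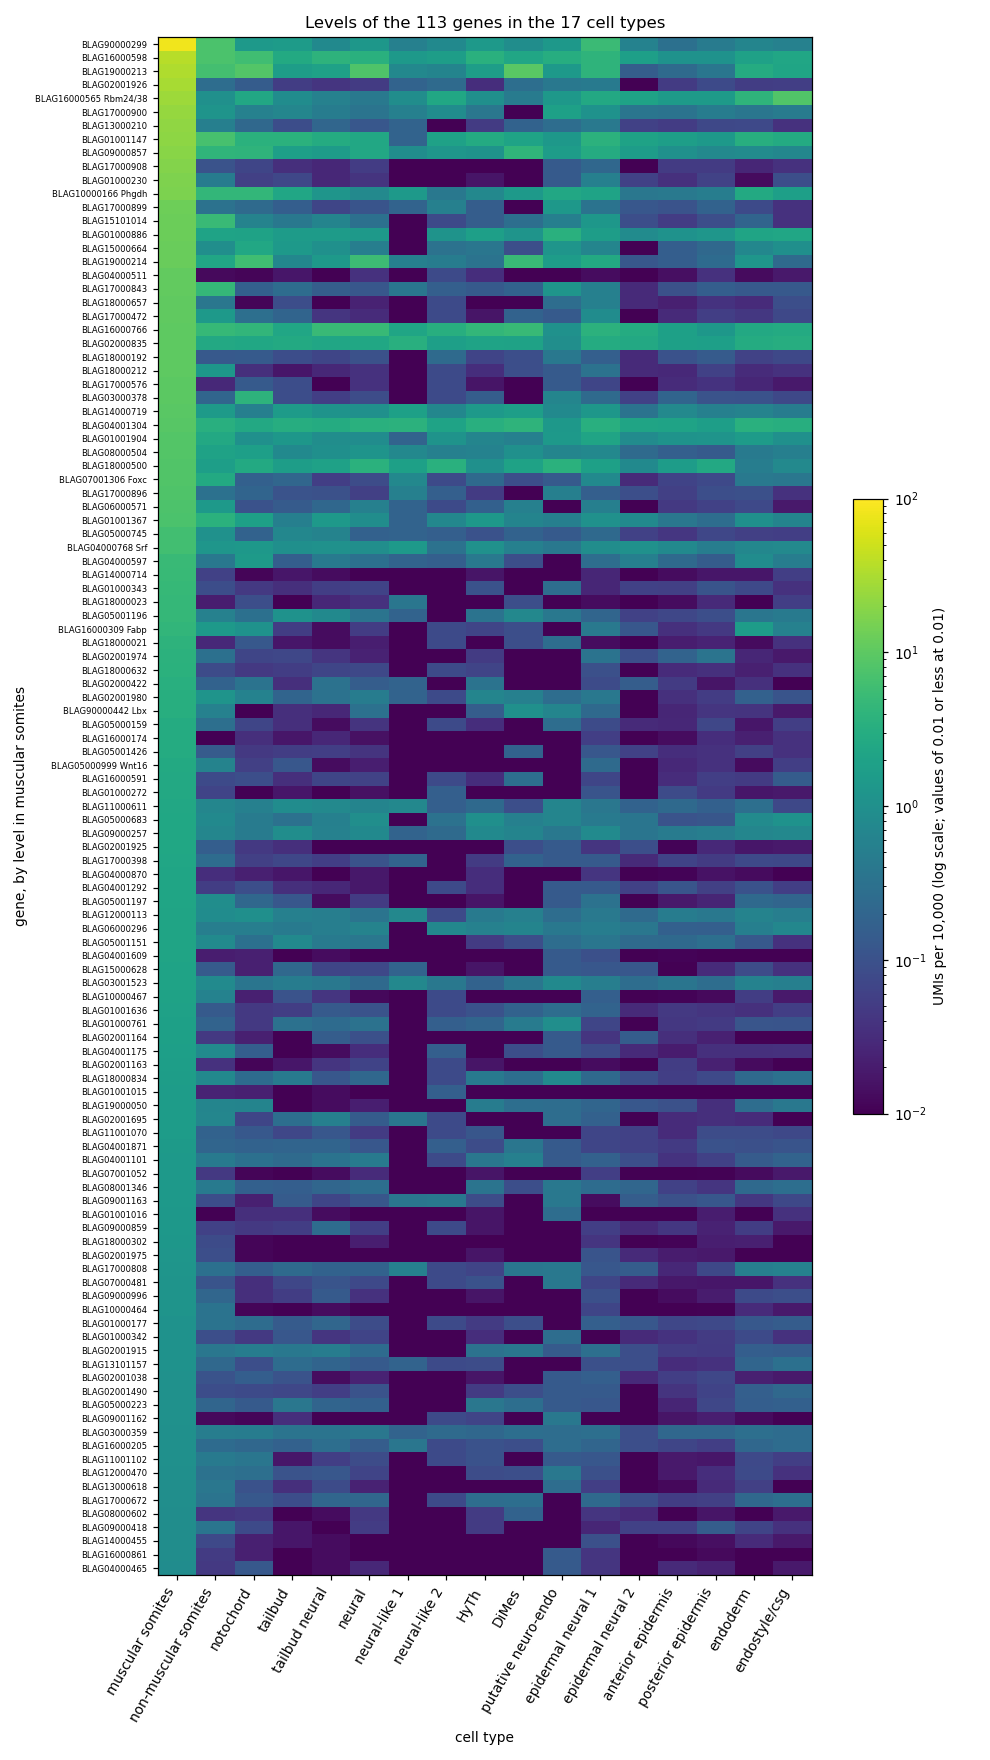
Levels of the 113 genes (rows, from the highest level in muscular somites down) in the 17 cell types (columns), as colour on a log scale in UMIs per 10,000. The first column exceeds all others in every row, as the rule requires, and the rows differ in whether non-muscular somites, notochord or neural types hold a lower level or almost none.

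Of the 10 narrowest genes by ratio to the next type, 6 had a level above the upper quartile of 9.04. The ratio exceeded 5 for 52 genes, 10 for 31 and 50 for 7, with a median of 4.19. BLAG04000511, at 11.1 (10.3 to 12), had the largest ratio, 139, but it rests on 1 UMI in neural-like 2 cells and its counting interval runs from 24.9 to 5513. It had a UMI in 35.7% of muscular cells, 0.45% of non-muscular somite cells and 0.47% of posterior epidermal cells, so the non-muscular share did not exceed the epidermal background. BLAG14000714 had a ratio of 85.5 (50.1 to 158), BLAG17000908 84.4 (51.7 to 148), BLAG17000576 72.8 (41.4 to 142) and BLAG02001926 69.6 (49.1 to 102). BLAG04000870 (56.0), BLAG16000174 (53.3), BLAG13000210 (41), BLAG18000632 (38.3) and BLAG01000230 (30.2) followed. MLC-alk had a ratio of 41.1 by the same measure, and 7 of the 113 genes exceeded it. For 24 genes the next type held 3 UMIs or fewer, and for 76 of the 113 the lower bound of the ratio was itself above 2.

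At the other end, the genes just inside the threshold were BLAG16000766 (2.03, with 10.3 in muscular somites and 5.06 in tailbud neural cells), BLAG01000761 (2.04) and BLAG01001367 (2.05). Just outside lay BLAG18000685 (1.95), BLAG02001917 (1.92) and BLAG03001717 (1.91). The lower bound was at or under 2 for 37 of the 113 genes, so their place in the set lies within counting error.

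The sources name 7 of the 113 genes. They comprise transcription factors, a ligand, an RNA-binding protein and proteins of metabolism.

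Foxc, a forkhead factor of somitic and head mesoderm in vertebrates, was the highest of the 3 transcription factors, at 8.16 (7.44 to 8.92) in muscular somites against 2.71 (2.50 to 2.92) in non-muscular somites. All further types were at 0.80 or less, which leaves Foxc a gene of the somites at large with its peak in muscle. Its levels in the non-muscular metacells ran from 0.41 in metacell 20 to 4.89 in metacell 25. Srf, the MADS-box factor that binds upstream of many contractile genes, stood at 6.05 (5.43 to 6.71). Unlike Foxc it was present at a similar low level in many types, at 1.48 in neural-like 1, 1.38 in the notochord and 1.27 in non-muscular somites. Of the Srf UMIs in muscular somites, 1 cell supplied 20.6%, and the level without it was 4.91. Lbx, a homeobox factor known in vertebrates from migrating muscle precursors and the dorsal spinal cord, was at 3.17 (2.73 to 3.66). Its next types were the Di-Mesencephalic primordium at 1.01 (0.50 to 1.81, 11 UMIs), putative neuro-endo at 0.67 and non-muscular somites at 0.56.

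Wnt16, a secreted Wnt ligand, was at 2.69 (2.29 to 3.14) in muscular and 0.60 (0.51 to 0.71) in non-muscular somites, and at most 0.24 elsewhere. Within the non-muscular somites it was concentrated in metacells 27 (1.71) and 21 (1.15) and was at 0.32 or less in the other 6. It had a UMI in 30.2% of muscular, 9.16% of non-muscular and 0.46% of posterior epidermal cells.

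Rbm24/38, an RNA-binding protein that in vertebrates acts on muscle transcripts, was the most expressed named gene at 26.4 (25.1 to 27.7). The cells of endostyle and club-shaped gland had a level of 8.10 (7.36 to 8.89) and the endoderm 4.02, but only 1.02 in non-muscular somites, so its second site was endodermal. Phgdh, which catalyses the first step of serine synthesis, stood at 16 (15 to 17.1), with 4.52 in non-muscular somites and 4.43 in the notochord. The fatty acid-binding protein Fabp (BLAG16000309) was at 4.33 (3.81 to 4.89), with 1.61 in the endoderm and 1.42 in non-muscular somites. Among the non-muscular metacells Phgdh was highest in metacell 22 (9.72) and Fabp in metacell 27 (3.65).

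For context, 5 transcription factors listed for muscular somites were examined, and 3 of them, Foxc, Srf and Lbx, are among the 113 genes. The others were present without being specific. Dnajc2, a ribosome-associated chaperone, was at 2.25, with 1.81 in the endoderm. Gli3, a zinc-finger mediator of Hedgehog signalling, was at 2.49, below the 2.84 of the Di-Mesencephalic primordium.

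The type with the second-highest level was the non-muscular somites for 40 of the 113 genes, or 35.4%. Over all 1956 genes tested, non-muscular somites were the highest of the 16 other types for 9.25%. Putative neuro-endo followed with 19 genes (16.8%, beside 7.08% of the 1835 tested genes that did not pass the ratio), a type of 166 shallow cells (median 416 UMIs) in which a few UMIs set a level. Epidermal neural 1 was the second type for 12 genes (10.6%), and for 5 of the same 1835 genes (0.27%). The 12 genes included BLAG02001926, BLAG17000908, BLAG01000230, BLAG18000657, BLAG18000632, BLAG16000174 and BLAG04000870. Their UMIs in epidermal neural 1 came mainly from a handful of cells: 6 of the 108 cells, on 5 plates, held 154 of the 185 UMIs. These 6 cells were those whose share of UMIs in the 113 genes was at or above 1.78%, the 5th percentile of muscular somite cells. They also held 126 of the 386 UMIs of the 8 reference markers in this type and had a median depth of 11145 UMIs. The cells were picked for that share, so their hold on the UMIs of the 12 genes is in part fixed by the choice.

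Within the somites, the choice of the genes puts the summed level higher in muscular than in non-muscular cells, and the values by metacell show its spread. Metacell 15 stood at 807 (798 to 816) and metacell 14 at 653 (642 to 664). Metacell 27 was highest of the non-muscular ones at 140 (137 to 143), followed by metacells 22 at 121, 25 at 121, 26 at 110, 21 at 103, 23 at 90.04, 20 at 78.0 and 24 at 67.6. Metacell 27 was also the non-muscular peak of more genes than any other metacell, 26 of 113 (23%), against 12.2% of the tested genes that did not pass. For 25 genes no non-muscular metacell reached 1/10 of the muscular level. The choice of the genes favours this count, which is not set beside a share of the other tested genes.

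**Figure D3:**
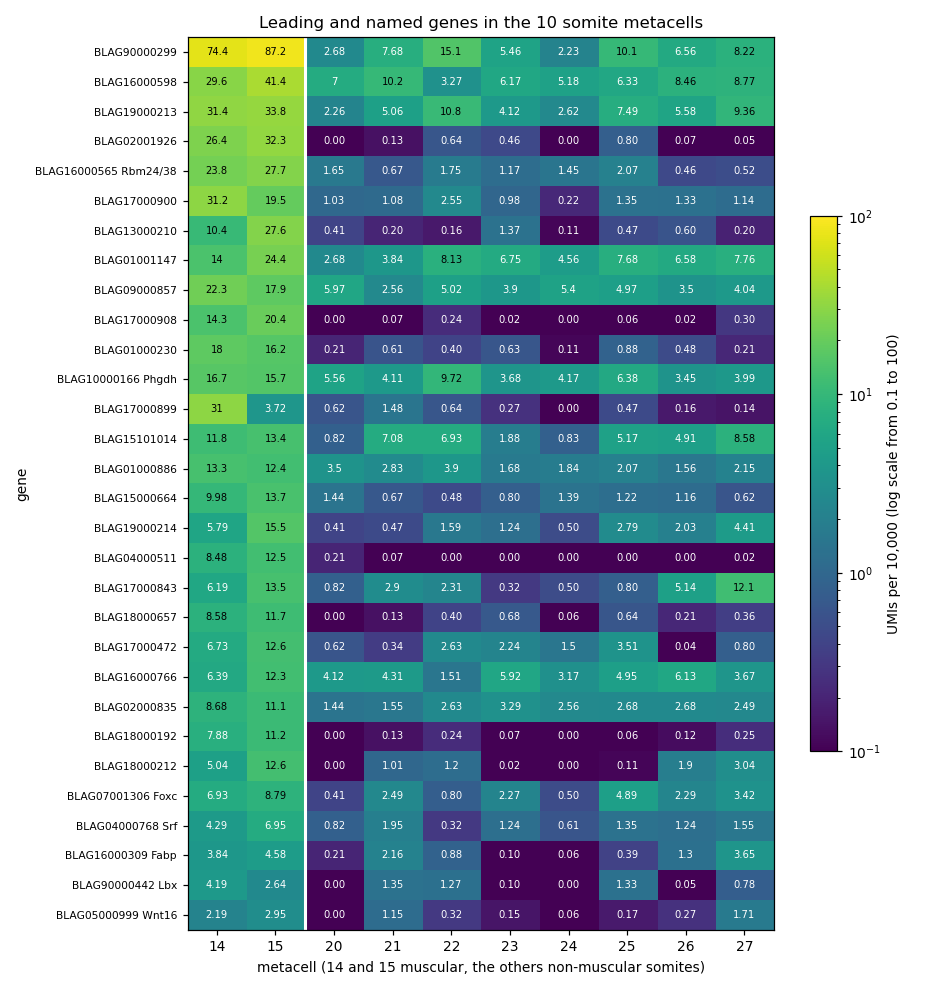
Levels in UMIs per 10,000 of the 25 genes with the highest level in muscular somites and of the other named genes in the 10 somite metacells, as numbers and as colour on a log scale. BLAG04000511 and BLAG17000908 are at 0.30 or less in all non-muscular metacells, whereas BLAG17000843 reaches 12.1 in metacell 27, between its 6.19 in metacell 14 and 13.5 in metacell 15.

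For 14 genes a non-muscular metacell reached or passed the lower of the muscular metacells. The lower of 2 muscular metacells was set against the highest of 8 non-muscular ones, which favours this count. It is not set beside a share of the other tested genes. Some of the 14 rest on few UMIs, such as BLAG02001163, with 2 UMIs in metacell 14 and 3 in metacell 21. BLAG17000843 was at 12.1 in metacell 27, against 6.19 in metacell 14 and 13.5 in metacell 15. BLAG01001367 was at 5.92 in metacell 26, against 2.24 and 9.88. In BLAG02001695, metacell 25 at 2.29 exceeded both muscular metacells, at 1.45 and 1.71, and in BLAG09000418 metacell 21 at 1.55 exceeded both, at 1.20 and 0.78. Metacell 27 was the non-muscular peak of 7 of these 14 genes. Specificity at the level of the cell type thus does not exclude a similar level in part of the non-muscular somites, as for BLAG17000843.

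The muscular metacells differed from each other. Metacell 14 held 114 cells with a median of 1576 UMIs and metacell 15 held 68 cells with a median of 4977. The metacells were formed by the authors from the same counts, so their differences are also a description. The summed level of the 113 genes was 1.24 (1.21 to 1.26) times higher in metacell 15, and 1.32 times higher with every cell thinned to 500 UMIs. For single genes the part of the depth gap was not tested beyond the thinned shares given below. The level in metacell 15 was over 2 times that in metacell 14 for 28 genes (24.8%), beside 17.2% of all 1956 genes tested, and under 1/2 of it for 3 genes (2.65%), beside 5.32%. The counting interval of the ratio lay wholly above 1 for 60 genes and wholly below 1 for 11, beside 31.1% and 18.3% of all genes tested. The median ratio was 1.41, against 1.16 over all genes tested. The choice of the genes bears on these counts, because metacell 15 supplied 65.9% of the muscular somite UMIs. A gene could reach 50 UMIs, and a ratio over 2 to the other types, mainly through it, and 64 of the 113 genes had under 50 UMIs in metacell 14, against 18 in metacell 15. The rule applied to metacell 14 alone kept 44 of the 113 genes and to metacell 15 alone 93. A tilt of the genes as a group is thus not read from the counts.

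Among the 76 genes with at least 100 UMIs, those most tilted to metacell 15 were BLAG02001163 and BLAG02001164. BLAG02001163 had 99 UMIs in metacell 15 and 2 in metacell 14, a ratio of 25.7 (6.92 to 215), and BLAG02001164 had 107 and 3, a ratio of 18.5 (6.16 to 91.1). Both were rare even in metacell 15, with a UMI in 14.7% and 19.1% of its cells. BLAG04000597 was at 7.32 against 1.20 (ratio 6.11), BLAG14000714 at 6.88 against 1.35 (5.11, resting on few cells), BLAG04001292 at 3.13 against 0.65 (4.82) and BLAG01001367 at 9.88 against 2.24 (4.40). BLAG15000628 (3.29), BLAG12000113 (3.0), BLAG19000214 (2.69) and BLAG13000210 (2.66) followed. The last 2 were common, with BLAG13000210 at 27.6 in metacell 15 and 10.4 in metacell 14, and both were higher in metacell 15 on each of the 4 plates with at least 3 cells of either metacell. Of the others, BLAG12000113 was higher in metacell 15 on 0 of these plates and in metacell 14 on 1, with equal levels on 3. BLAG02001163 was higher in each metacell on 1, with equal levels on 2. BLAG02001164 was higher in metacell 15 on 1, with equal levels on 3. BLAG04000597, BLAG04001292, BLAG01001367 and BLAG15000628 were higher in metacell 15 on 3. For BLAG14000714 a pair of cells held 231 of its 266 UMIs in metacell 15. Without them, a choice made after the values were seen, its level there was 0.95, below that of metacell 14, and the ratio turned to 0.70 (0.41 to 1.21). Leaving out the muscular cell with most UMIs of each gene in turn left 24 genes with a ratio over 2. They include BLAG04000465, which was at 1.51 with that cell and at 3.87 without it. Other genes fell under 2, such as BLAG02000422, from 2.51 to 1.99. After thinning to 500 UMIs a UMI of BLAG13000210 was found in 50% of the cells of metacell 15 and 23.4% of those of metacell 14.

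Few genes tilted the other way, and among the 76 with at least 100 UMIs the strongest carry ID numbers next to Titin-like. BLAG17000899 was at 31 (28.6 to 33.5) in metacell 14 and 3.72 (3.14 to 4.38) in metacell 15, a level 8.32 times higher in metacell 14. BLAG17000896 was at 17 (15.2 to 18.9) and 3.44 (2.88 to 4.08), 4.93 times higher. BLAG17000900 was at 31.2 and 19.5. Titin-like itself, a component of the sarcomere and one of the reference markers, was at 41.3 and 8.89. On the 4 plates BLAG17000896 was higher in metacell 14 on 4 and BLAG17000899 on 3. BLAG17000900 was higher in metacell 14 on 2 and in metacell 15 on 2, with thinned shares of 57.7% and 50%. After thinning, a UMI of BLAG17000899 was found in 58.6% of the cells of metacell 14 and 11.8% of those of metacell 15. The myogenic factors leaned the same way, with ratios of metacell 15 to metacell 14 of 0.24 for Mrf4, 0.25 for Mrf2b, 0.41 for Mrf2a and 0.51 for Mrf1, whereas Mef2 (1.52), MLC-alk (1.22) and Lmo4 (0.98) did not. Of the named genes, Lbx was at 4.19 in metacell 14 and 2.64 in metacell 15 (0.63, 0.47 to 0.85). The thinned share of cells with an Lbx UMI had the other order, 13.5% in metacell 14 and 19.1% in metacell 15, and of the 4 plates 2 were higher in metacell 14 and 1 in metacell 15. Srf had a ratio of 1.62 (1.27 to 2.09), which became 1.22 (0.94 to 1.59) without the cell of metacell 15 that held 73 of its UMIs, and its thinned shares were 11.7% and 11.8%. Of the 4 plates, Srf was higher in metacell 15 on 3 and in metacell 14 on 1. The readouts of Lbx thus gave no 1 direction between the metacells. Those of Srf were higher in metacell 15 or near equal, with an interval that spanned 1 without the top cell. The interval of Phgdh spanned 1 (0.94, 0.82 to 1.08). BLAG18000500 (0.64), BLAG02001925 (0.67), BLAG05000683 (0.73), BLAG06000571 (0.76), BLAG02001974 (0.80) and BLAG09000857 (0.80) make up the rest of the 10 lowest ratios among these 76 genes. BLAG05000683 was nevertheless higher in metacell 15 on 3 of the 4 plates. BLAG02001925, BLAG02001974 and BLAG09000857 were higher in each metacell on 2, while BLAG18000500 and BLAG06000571 were higher in metacell 14 on 3. The thinned share of BLAG02001925 was 9.01% in metacell 14 and 17.6% in metacell 15. Some genes with fewer than 100 UMIs had a lower ratio than BLAG17000900, such as BLAG17000808 at 0.44 on 72 UMIs.

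**Figure D4:**
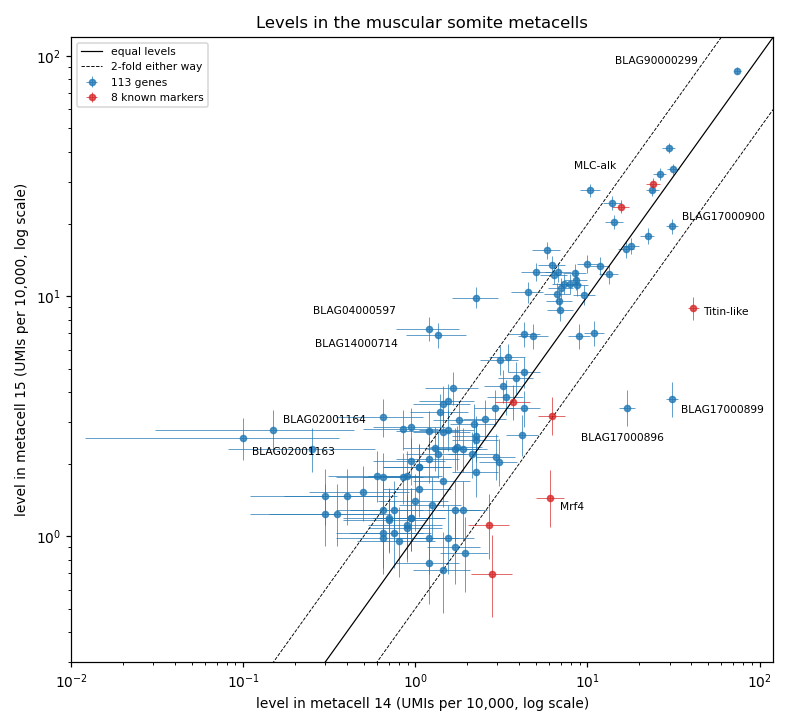
Level of each of the 113 genes (blue) and 8 reference markers (red) in metacell 14 against metacell 15, in UMIs per 10,000 on log axes with exact 95% Poisson intervals; the solid line marks equal levels and the dashed lines 2-fold differences. BLAG17000899 and BLAG17000896 lie beside Titin-like on the metacell 14 side, and BLAG02001163 and BLAG02001164, with 2 and 3 UMIs in metacell 14, lie farthest on the metacell 15 side.

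The run of BLAG17000895 (Titin-like), BLAG17000896, BLAG17000899 and BLAG17000900 was the longest of the close IDs that includes genes of the set. In the 182 muscular cells, Titin-like was detected in 160 cells and BLAG17000899 in 141, and 129 had both. BLAG17000896 was detected in 114 cells, 111 of them with Titin-like. Each of these genes was found in most of the 182 cells, so a large overlap follows from the detection rates alone. Whether these IDs are separate genes or pieces of a gene model cut in parts cannot be told apart here, because the tables hold no coordinates. Within 5 ID numbers of another gene of the set or a reference marker lay 28 of the 113 genes (24.8%). The same held for 92 of the 1835 tested genes that did not pass (5.01%). There were 14 such runs, 1 of them the 4 Mrf genes, and 11 were pairs. Some pairs moved together: BLAG02001163 was found in 12 muscular cells and BLAG02001164 in 16, with 11 in common. Others did not, such as BLAG19000213, with a ratio of metacell 15 to 14 of 1.08, and BLAG19000214, with 2.69.

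Single muscular cells varied widely. The share of a cell's UMIs in the 113 genes had a median of 5.15% in metacell 14 (0.97 to 17%) and 5.88% in metacell 15 (2.15 to 20.6%). In non-muscular somite cells the median was 0.87% and the highest value 5.34%, so the ranges overlapped. Shares over 10% were found in 14 cells of metacell 14 and 18 of metacell 15, on 21 plates, and in 0 of the 14404 other cells. By counting error alone, that 0 allows a share of up to 0.0208%. The genes were chosen for their levels in these same cells, so the split is in part fixed by the choice. Thinned to 500 UMIs, a cell had UMIs of a median of 14 of the genes in metacell 14, 19 in metacell 15 and 4 in non-muscular somites. Cells with a high share also had a high share of UMIs in the 8 reference markers, with a Spearman correlation across cells of 0.68 in the 114 cells of metacell 14 and 0.79 in the 68 cells of metacell 15. Both shares come from the same library of each cell. The correlation with the cell's depth was 0.13 and 0.14.

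**Figure D5:**
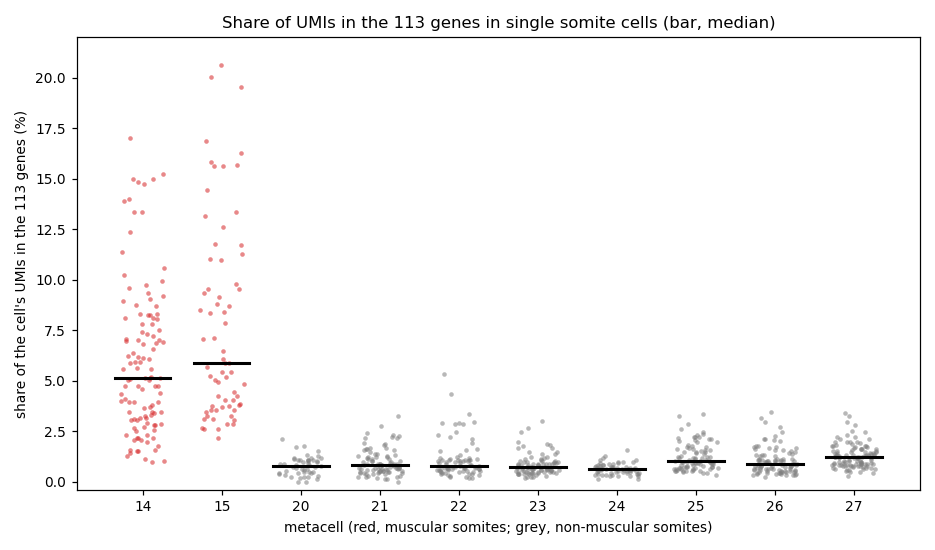
Share of each somite cell's UMIs that falls in the 113 genes, in %, by metacell, with muscular metacells in red, non-muscular ones in grey and a bar at the median. Muscular cells range from 0.97% to 20.6% with medians of 5.15% and 5.88%, and non-muscular cells stay at 5.34% or less.

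Outside muscular somites 105 of 14404 cells reached the share of 1.78% that marks the 5th percentile of muscular somite cells. Of these 78 were non-muscular somite cells, 9 posterior epidermal cells, 6 epidermal neural 1 cells and 4 notochord cells. The 78 cells held 30.4% of the UMIs of the 113 genes in non-muscular somites, which the choice of cells by that share raises.

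Most genes were detected in a minority of muscular cells. The median share of cells with a UMI was 28.6%, from 5.49% to 95.1%, against 8.11% of non-muscular somite cells and 0.78% of posterior epidermal cells, and 30 genes were found in at least 50% of the cells. The 10 cells with the most UMIs of a gene held a median of 46.2% of its UMIs. A single cell held over 25% for 3 genes, BLAG14000714, BLAG01000342 and BLAG02001490, and these shared their main cells. In 1 cell of metacell 15, with 13160 UMIs, there were 186 UMIs of BLAG14000714, 40 of BLAG01000342 and 33 of BLAG02001490. In another cell of metacell 15, on another plate and with 3325 UMIs, there were 45, 7 and 10. The pair of cells held 78.8%, 72.3% and 68.3% of the UMIs of the 3 genes in muscular somites.

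For other genes the pooled level of these 2 cells lay above, near or below that of the other muscular cells, depending on the gene. Their pooled level of BLAG90000299 was 107 against 82.1 in the other 180 muscular cells, and that of BLAG13000210 was 51.6 against 20.9. Both cells are of metacell 15, which as a whole had 87.2 and 27.6. The deeper cell held 138 of the pair's 177 UMIs of BLAG90000299 and 73 of its 85 of BLAG13000210. BLAG02001926 was at 30.3 in the pair and in the rest, while MLC-alk (15.2 against 27.8) and Mef2 (10.3 against 21.2) were lower in the pair. The pair had 0 UMIs of BLAG04000511, BLAG18000192 and BLAG01000343. A UMI of these was found in only 35.7%, 28.6% and 19.8% of muscular cells, so 0 in a pair of cells says little. The pair had 1 UMI of the 4 Mrf genes together. Without the 2 cells BLAG14000714 still had a ratio of 18.6 to the next type, but BLAG01000342 (1.18) and BLAG02001490 (1.58) fell under 2. The cells were chosen after the values were seen. Leaving out the single cell with most UMIs of each gene, in turn, left 9 of the 113 genes at or under the ratio of 2, among them BLAG01000342 (1.63) and BLAG01001367 (1.83).

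The plates are technical batches of the sample. Muscular somite cells came from all 40 plates, 1 to 13 per plate. The 113 genes were chosen on the pooled counts of the cells of all plates, so the order of the somite classes within a plate is also a description. On the 20 plates with at least 5 cells of both somite classes, the summed level was higher in muscular cells on 20, with a median of 707 (364 to 1533) against 113 (67.9 to 156) in non-muscular cells. On the 4 plates with at least 3 cells of both muscular metacells, metacell 15 was higher on 3.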

How the data were processed

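Embryos were profiled by MARS-seq. The authors mapped reads with STAR to the genome, assigned them to exonic intervals, filtered UMIs for sequencing and amplification errors, and grouped cells into metacells. They deposited UMI counts, not normalized, of 27073 genes in 14586 cells; their table of metacell fold changes was not used here. Doublets were handled only by the authors' scatter gates of the sorter. No cell name occurs more than once (0 duplicates).

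Levels are summed UMIs per 10,000, with exact Poisson 95% intervals. Ratios have exact conditional binomial intervals and shares of cells Clopper-Pearson intervals, and a count of 0 allows up to 3 UMIs. Shares were also taken after thinning to 500 UMIs. With 1 sample, no test was made.

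The genes and lists were chosen with earlier results of these data known. Named in the text are the 20 genes highest in muscular somites, the 10 with the largest ratio, the 10 with the highest and 10 with the lowest ratio of metacell 15 to 14 among those with at least 100 UMIs, 3 on either side of the threshold, genes named by the sources, and reference markers. Genes tied to single cells, to epidermal neural 1, to non-muscular metacells or to close IDs, and BLAG17000808, were added after their values were seen. For 1 further gene under this rule no result is given. The reference table matched 0 of the 113 IDs, so planned searches by product name, promoter and protein were not made. Python 3.11.15, numpy 2.4.6, scipy 1.17.1 and pandas 2.3.3 were used, and the statistics were tested on simulated data.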

Additional observations from a re-analysis of the deposited data

How the results depend on the processing

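The number of genes specific to muscular somites stayed within 1.5 times of 113 under 11 of 12 alternatives. It was 162 with a minimum of 20 UMIs, 76 with 100, 157 at a ratio over 1.5 and 78 at a ratio over 3, 99 from the mean of single cells (96 shared with the 113), and 90 without the cells of over 4 times the median depth of their type (87 shared). With muscular somites taken as metacell 14 alone it was 50, of which 44 were shared, as the minimum of 50 UMIs was kept over fewer UMIs, and with metacell 15 alone it was 103 (93 shared). The summed level of 754 became 667 as a mean over cells, 701 without deep cells, 764 without the plate with most muscular cells and 659 after thinning. The ratio of metacell 15 to 14, 1.24, became 1.30, 1.13, 1.20 and 1.32 in the same order, and 1.27 without the 10 genes with most UMIs. The ratio of muscular to non-muscular somites, 6.76, became 6.47 as a mean over cells, 6.30 without deep cells, 6.51 after thinning, 5.77 without the 10 genes with most UMIs, and 8.34 without the cells of other types with a high share of UMIs in the 113 genes, an alternative chosen after seeing the data that raises the ratio by construction. These values kept their direction, and the causes of the other shifts were not tested. For single genes, also chosen after seeing the data, the 2 cells that hold most of their UMIs were left out. The ratio of metacell 15 to 14 became 0.70 (0.41 to 1.21) for BLAG14000714 and 0.68 (0.24 to 1.97) for BLAG01000342. Both intervals hold 1, and that of BLAG01000342 rests on 10 UMIs in metacell 15 and 8 in metacell 14. No paired analysis was possible because cells carry no sample number and the scRNA-seq and ATAC-seq samples that share numbers were not compared. Types of few or shallow cells, such as neural-like 1 with a floor of 0.55 per 10,000 for 3 UMIs, limit how far absence can be read.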
